A study of Mus musculus with 2 samples.

Results

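The cells described here are the CD8 T cells that the authors' deposited annotation places in cluster 16, taken from the 1 library whose counts were analysed, library 2. The members are the annotated library 2 cells whose cell type is CD8 and whose cluster is 16. They number 174 of 542 CD8 T cells, of 10476 annotated cells in that library and of 19210 in the whole annotation. The remaining 368 CD8 T cells of library 2 (92 in cluster 23, 112 in cluster 33, 92 in cluster 38 and 72 in cluster 44) served as the comparison. Cluster 16 holds CD8 T cells alone, 465 over both libraries.

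The cells came from MC38 tumours, a transplanted mouse colon carcinoma line, grown subcutaneously in mice of the human Fcγ receptor strain (hFcgR), and were sorted for the leukocyte surface marker CD45. The treated mice were given anti-mouse GITR carrying human IgG1 Fc variants at 100 µg a mouse into the peritoneum, 2 times with 3 days between, and tumours were collected 4 days after treatment. The 4 treatments were PBS (Untreated), N297A (an agonist antibody whose Fc part is null), GA-aFuc (an agonist with an enhanced Fc part) and GITR/Syn GA-aFuc (a non-agonist with an enhanced Fc part), with 3 mice each over both libraries. Library 2 holds 6 of these mice. GA-aFuc replicates 2 and 3 gave 50 and 22 cluster 16 cells, GITR/Syn GA-aFuc replicates 2 and 3 gave 26 and 16, N297A replicate 3 gave 21 and Untreated replicate 3 gave 39. The mouse is the replicate throughout. N297A and Untreated have 1 mouse each in library 2.

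CD8 T cells recognise peptides on MHC class I through a T cell receptor and the CD8 coreceptor, and kill through granzymes and perforin. Under lasting antigen exposure in tumours they take on a state called exhaustion, with PD-1 (Pdcd1), CTLA-4, LAG-3 and TIM-3 (Havcr2) on their surface. Stem-like CD8 cells, marked by the transcription factor TCF-1 (Tcf7), renew this pool and give rise to cells that divide and then stop dividing. Activated T cells also carry GITR, the product of Tnfrsf18, which costimulates them and belongs with 4-1BB and OX40.

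All 5 genes of the CD8 T cell marker list were found in cluster 16, and their summed level lay between 3239 and 4224 CPM (UMIs of the gene scaled to 1000000 UMIs, over all gene UMIs of the cells summed per mouse), against 1893 to 2598 in the other CD8 cells. The class itself rests on the annotation and not on these genes. Marker lists of other lineages were detected in part. Of the regulatory T cell list 5 of 6 were detected, at a summed 1268 to 1713 CPM against 955 to 1274 CPM in the other CD8 cells, with Foxp3 at 0 UMIs. Of the CD4 T cell list 5 of 5 were detected, at 553 to 855 against 351 to 588 CPM, with Cd4 itself at a mean of 0.775 CPM. Of the NK cell list 6 of 8 were detected, at 568 to 865 against 456 to 948 CPM, with Ncr1 and Klra8 at 0. Of the monocyte list 7 of 7 were detected, at 2107 to 3377 against 1916 to 2683 CPM. Most of its sum in cluster 16 was Ly6c2, at 1137 to 1939 CPM, and Plac8, at 623 to 1123 CPM. The γδ T cell list summed to 12.1 to 83.7 CPM, with Trdc and Trdv4 at 0, and the B cell list to at most 21.9 CPM, with Cd79a and Ms4a1 at 0. The part of these cell types in the results was not tested. Macrophage markers were present at a summed 397 to 1843 CPM, with 8 of 8 detected and the highest sum in GITR/Syn GA-aFuc replicate 2, against 457 to 1038 CPM in the other CD8 cells. In 70.1% of cluster 16 cells and 74.2% of the others, 3 or more UMIs of these markers were counted. The part of such RNA in the results was not tested except by leaving those cells out, which keeps 52 and 95 cells. That leaves 4 to 17 cluster 16 cells a mouse, so it cannot tell a loss of cells from a loss of such RNA. The median cell of cluster 16 held 7969 UMIs and 2812 genes (8726 and 2818 in the others). The summed UMIs per mouse ran from 143339 to 414049. Xist, the RNA of the inactive X chromosome, was at 567 and 551 CPM over all annotated cells of GA-aFuc replicate 2 and GITR/Syn GA-aFuc replicate 2 and at most 1.98 CPM in the other mice, so both mice with Xist were given an Fc-enhanced antibody, and the part of sex in the comparisons was not tested.

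The clearest feature of cluster 16 beside the other CD8 cells of the same mice was a low level of cell cycle and histone genes. Since the clusters were drawn from the same cells, these differences are a description and carry no test. Of 3724 genes with a mean of at least 50 CPM in either sum, 61 (1.64%) were at least 2-fold lower in cluster 16 in every one of the 6 mice and 1 (0.0269%) at least 2-fold higher, on log2 of CPM + 10. Without the fold limit, 558 genes (15%) were higher and 526 (14.1%) lower in every mouse, and the median log2 ratio over all genes was 0.06. The fold figures lean on one comparison cluster. Without the cells of cluster 38, 1 gene was at least 2-fold higher and 1 at least 2-fold lower in every mouse, an alternative chosen after the data were seen.

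Among the proliferation genes, 21 of 24 were measured and 21 of 21 were lower in every mouse, with a median log2 ratio of -2.23, and 15 of them were at least 2-fold lower in every mouse. The lowest was Pclaf, a PCNA-binding protein of DNA replication, with 0, 19.1 and 23.3 CPM (lowest, median and highest mouse) in cluster 16 against 272, 423 and 631 CPM in the other CD8 cells. Top2a, the topoisomerase that untangles chromosomes, was at 9.30, 37.8 and 112 CPM against 354, 410 and 559 CPM. Neither gene's mice overlapped between the sums, and the share of all genes without overlap was not counted. The mean log2 ratios were -4.15 ± 0.50 (SD, n = 6) for Pclaf and -3.21 ± 0.95 for Top2a. Mki67, which encodes the proliferation antigen Ki-67, was at 9.66, 24.6 and 69.8 CPM against 220, 236 and 338 CPM. Stmn1, a microtubule regulator, and Rrm2, a ribonucleotide reductase subunit, had mean log2 ratios of -3.26 and -3.15. Histone genes stood among the 10 lowest ratios. The linker histone gene H1f5 was at 4.65 to 20.9 CPM in cluster 16 and 570 to 1319 CPM in the others, with a mean log2 ratio of -5.30 ± 0.50, and H2ac24, H2ac8 and H3c3 stood at -4.21, -3.57 and -3.43.

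Most of that gap belonged to cluster 38. The proliferation list summed to 1229 ± 283 CPM in cluster 16 (SD, n = 6), 1405 in cluster 23, 1597 in cluster 44, 3290 in cluster 33 and 12620 in cluster 38. Top2a averaged 45.7 CPM in cluster 16, 50.7 in cluster 23, 32.8 in cluster 44, 99.6 in cluster 33 and 936 in cluster 38. Left without cluster 38, the list's median log2 ratio was -0.94 and 14 of 21 genes were lower in every mouse. Thinned to 3000 UMIs a cell, which leaves out 2 cluster 16 cells and 8 others, Top2a had a UMI in 10.5% of cluster 16 cells (18 of 172, exact 95% interval 6.32 to 16.03%) and in 32.5% of the others (117 of 360, 27.7 to 37.6%). Unthinned the shares were 22.7% and 45.3%.

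The upstream sequences of 3 genes of this group are shown because their levels were low together. RefSeq promoters matched 21 of the 24 list members, and all sequences are 250 bases before the start site in GRCm38.p6. Capitals mark CCAAT, the box bound by NF-Y, and TTTGAA, the core of the cell cycle homology region, both searched on both strands, so ATTGG and TTCAAA are the reverse forms.
Top2a, chr11:99024190-99024439, minus strand: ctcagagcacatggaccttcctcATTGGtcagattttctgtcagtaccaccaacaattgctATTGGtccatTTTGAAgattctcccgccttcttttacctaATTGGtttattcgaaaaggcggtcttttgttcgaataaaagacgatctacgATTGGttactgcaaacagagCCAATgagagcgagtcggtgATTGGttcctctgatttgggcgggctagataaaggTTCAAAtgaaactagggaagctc
Mki67, chr7:135716380-135716629, minus strand: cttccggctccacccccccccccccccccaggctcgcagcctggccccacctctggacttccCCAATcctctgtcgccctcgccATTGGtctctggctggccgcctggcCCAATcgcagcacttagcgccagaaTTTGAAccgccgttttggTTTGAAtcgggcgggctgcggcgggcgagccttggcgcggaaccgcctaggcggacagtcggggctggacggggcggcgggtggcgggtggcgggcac
Pclaf, chr9:65890073-65890322, plus strand: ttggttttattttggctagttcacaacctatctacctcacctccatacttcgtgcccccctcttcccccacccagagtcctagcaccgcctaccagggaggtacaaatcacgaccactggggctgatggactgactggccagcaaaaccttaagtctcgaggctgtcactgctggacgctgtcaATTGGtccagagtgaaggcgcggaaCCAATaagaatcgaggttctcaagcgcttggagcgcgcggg
Top2a held 6 CCAAT and 2 TTTGAA matches, Mki67 3 and 2, and Pclaf 2 and 0. CCAAT was found in 17 of 21 promoters of the list (81.0%) and in 33.8% of all 32851 promoters of that length. TTTGAA was found in 7 of 21 (33.3%) and in 16%. A match describes the letters and is no measured site.

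**Figure D1:**
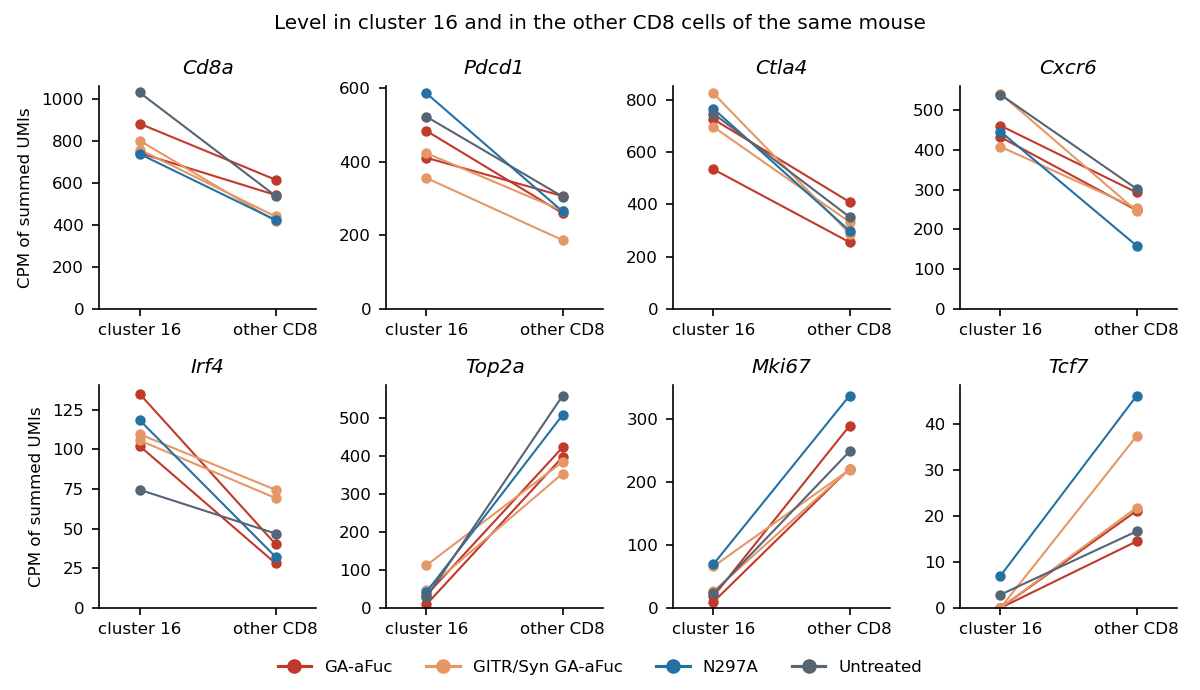
Level of 8 genes in cluster 16 (left of each panel) and in the other CD8 cells of the same mouse (right), in CPM of summed UMIs on a linear axis from 0; each line is 1 of 6 mice, coloured by treatment. Cd8a, Pdcd1, Ctla4, Cxcr6 and Irf4 were higher in cluster 16 in every mouse, and Top2a, Mki67 and Tcf7 lower.

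Inhibitory receptors stood at the other end. Of the 16 genes of that list in the data, 9 were measured, 6 were higher in cluster 16 in every mouse and 0 were lower in every mouse. The median log2 ratio was 0.86, and 0.89 without cluster 38. Ctla4, a receptor that competes with CD28 for its ligands, was at 535, 738 and 826 CPM in cluster 16 and 255, 316 and 410 CPM in the others, with a mean log2 ratio of 1.13 ± 0.24. Pdcd1, the gene of PD-1, was at 356, 453 and 586 CPM against 186, 266 and 306 CPM, with a mean log2 ratio of 0.78 ± 0.24. The ranges of neither gene overlapped, and the share of all genes without overlap was not counted. Lag3 was at 101, 127 and 189 CPM against 44.5, 66.6 and 81.1 CPM, and Entpd1, which encodes the ectonucleotidase CD39, at 112, 142 and 211 CPM against 53.2, 80.7 and 101 CPM. Havcr2 averaged 214 CPM in cluster 16 and 107 in the others, and their ranges overlapped. Tox, which encodes a DNA-binding regulator of exhaustion, did not have one direction: its log2 ratio ran from -0.70 to 1.23.

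Among the 5 CD8 clusters, cluster 16 had the highest mean level of Pdcd1 (464 CPM, next 345 in cluster 33), of Ctla4 (717, next 534 in cluster 44), of Havcr2 (214, next 150 in cluster 38), of Lag3 (132, next 99.4 in cluster 44) and of Cxcr6 (472, next 339 in cluster 44). These neighbours rest on fewer mice with 10 cells, 5 for cluster 33, 4 for cluster 38 and 3 for cluster 44. In thinned cells a Ctla4 UMI was found in 82.6% of cluster 16 cells and 55.8% of the others, a Pdcd1 UMI in 76.2% and 51.4%, and a Cxcr6 UMI in 65.1% and 51.9%. Monocytes of the same library, at a median of 9125 UMIs before thinning, gave 1.34%, 0.197% and 0.197% for the same genes, a level found in cells that should lack these genes. Havcr2 was different: a UMI was found in 43.6% of thinned cluster 16 cells, 22.2% of the others and 46.2% of the monocytes. The part of myeloid RNA in its level was not tested. Foxp3 had 0 UMIs in 172 thinned cells, which allows a share of cells with a UMI at this depth of up to 1.74%, from 3 counts, and sets no limit on cells that express the gene. These intervals and limits cover counting error only.

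Of 16 T cell receptor and coreceptor genes measured, 6 were higher and 0 lower in every mouse, with a median log2 ratio of 0.23. Cd8a was at 740, 782 and 1033 CPM in cluster 16 against 418, 490 and 616 CPM, and Cd8b1 at 846, 955 and 1277 CPM against 619, 693 and 837 CPM. Cd3e, the signalling chain of the receptor, was at 668, 694 and 852 CPM against 415, 529 and 606 CPM. None of these 3 overlapped between the sums, and the share of all genes without overlap was not counted. Cd8a averaged 827 CPM in cluster 16, 750 in cluster 44, 652 in cluster 33, 442 in cluster 38 and 239 in cluster 23. In the same order Cd8b1 averaged 996, 1107, 916, 610 and 422 CPM, highest in cluster 44, and Cd3e 725, 700, 599, 490 and 417 CPM.

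Effector transcription factors followed the receptors. Of 13 measured, 10 were higher in every mouse, with a median log2 ratio of 0.54. Irf4, induced by receptor signalling, was at 74.6, 108 and 135 CPM against 28.1, 43.6 and 74.5 CPM, with a mean log2 ratio of 1.053 ± 0.56. Zeb2, the gene of a transcriptional repressor, was at 241, 265 and 395 CPM against 86.6, 138 and 186 CPM. Tbx21, the gene of T-bet, and Bhlhe40 had mean log2 ratios of 0.78 and 0.75. In the activation, NR4A, EGR and AP-1 list 2 of 13 measured genes were higher and 1 lower in every mouse, with a median of 0.19. Its member Nr4a2, a nuclear receptor gene, was at 357, 490 and 603 CPM against 210, 283 and 311 CPM, and its relative Nr4a1 at 26.4, 63.1 and 115 CPM against 75.3, 88.3 and 114 CPM.

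Naive, stem-like and memory genes did not move as a list. Of 17, 10 were measured, 0 were higher and 3 lower in every mouse (Klf2, Lef1 and Xcl1), and the median log2 ratio was 0.27. Tcf7, below the level needed for the list's ratios, averaged 1.64 CPM, against 137 CPM in cluster 23, and was at 0 in 4 of the 6 mice. This low level was not particular to cluster 16: Tcf7 averaged 0 CPM in cluster 33, 2.26 in cluster 38 and 2.29 in cluster 44. It was found in 2 of 172 thinned cluster 16 cells. Lef1, another factor of that programme, averaged 22.4 CPM against 250 in cluster 23, 18.6 in cluster 33, 52.2 in cluster 38 and 22.9 in cluster 44. Other members were well detected, with Bcl2, a survival gene, at 333, 433 and 614 CPM against 234, 418 and 476 CPM. Klf2, which maintains the recirculating state, was at 4.39, 18.5 and 36.2 CPM in cluster 16 and 36.7, 63.5 and 120 CPM in the others. Trdc averaged 59.9 CPM in cluster 23 and at most 0.622 CPM in the other clusters, and Cd4 averaged 23.7 CPM in cluster 23 and 19.0 CPM in cluster 38. Against cluster 23 alone, 49 genes were at least 2-fold higher in cluster 16 in every mouse and 30 at least 2-fold lower.

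Of 17 costimulation genes 11 were measured, 3 were higher and 0 lower in every mouse, and the log2 ratios ran from -0.47 to 0.95 with a median of 0.43. Icos, a CD28 relative, was at 526, 714 and 809 CPM against 256, 337 and 501 CPM, with a mean log2 ratio of 0.95 ± 0.35. Tnfrsf9, the gene of 4-1BB, had a mean log2 ratio of 0.51. Tnfrsf18, which encodes the target of the antibodies, was at 255, 326 and 370 CPM in cluster 16 and 168, 223 and 280 CPM in the others, with a mean log2 ratio of 0.52 ± 0.39, and was lower in 1 of the 6 mice. Its thinned share was 57.6% against 45.6%.

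Homing and cytokine genes split. Cxcr6, a receptor of tissue T cells, was at 408, 454 and 542 CPM against 159, 250 and 302 CPM, and Itga1, an integrin of resident T cells, had a mean log2 ratio of 0.996. Itgb7 and Cxcr4 stood at -1.23 and -1.14. Of 22 homing and residence genes 14 were measured, 5 were higher and 3 lower in every mouse. Below the level for a ratio, Itgae and Zfp683 had medians of 0 and 1.21 CPM in cluster 16 against 5.59 and 2.98 CPM. Csf1, a growth factor of macrophages, was at 79.3, 102 and 161 CPM against 16, 60.9 and 68.4 CPM. Ccl1 had a mean log2 ratio of -2.53 and Cxcl10, an interferon-induced chemokine, of -1.43. Cd69, a retention and early activation receptor, was at 34.9, 74.6 and 86.0 CPM against 112, 158 and 250 CPM. Of 17 receptors shared with NK cells 5 were measured and 3 were higher in every mouse (Klre1 at 0.87, Klrd1 at 0.58 with overlapping ranges, and Klrc1). Members below the level for a ratio went both ways in their medians. Klra7 was at 1.43 against 37.0 CPM and Klra1 at 0 against 25.8 CPM. Klra3 was higher in cluster 16 at 10.23 against 3.45 CPM, Klri2 at 23.7 against 18.64 CPM and Cd244a at 39.05 against 25.15 CPM.

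The gene that was at least 2-fold higher in every mouse was Dlg2, a scaffold protein, at 59.5, 75.7 and 103 CPM in cluster 16 and 13.3, 15.8 and 27.9 CPM in the others, with a mean log2 ratio of 1.65 ± 0.37. Styk1, a receptor-like kinase of NK cells, followed at 1.55, Gm36723 at 1.29, Setbp1 at 1.24 and Kdm5b, a histone demethylase, at 1.22. Across clusters, Dlg2 averaged 78.0 CPM in cluster 16 and at most 32.0 CPM elsewhere, in cluster 44. Kdm5b averaged 70.9 CPM in cluster 16, 80.8 in cluster 23, 57.0 in cluster 44, 12.96 in cluster 33 and 2.60 in cluster 38. Of 17 cytotoxic genes 13 were measured, 5 were higher in every mouse (Prf1, Serpinb9, Nkg7, Fasl and Srgn) and 1 was lower (Gzma), with a median log2 ratio of 0.01. Prf1, the gene of perforin, was at 0.79 and Gzma at -2.21, and both ranges overlapped. Serpinb9, which inhibits granzyme B, was at 454, 578 and 700 CPM against 250, 344 and 442 CPM.

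**Figure D2:**
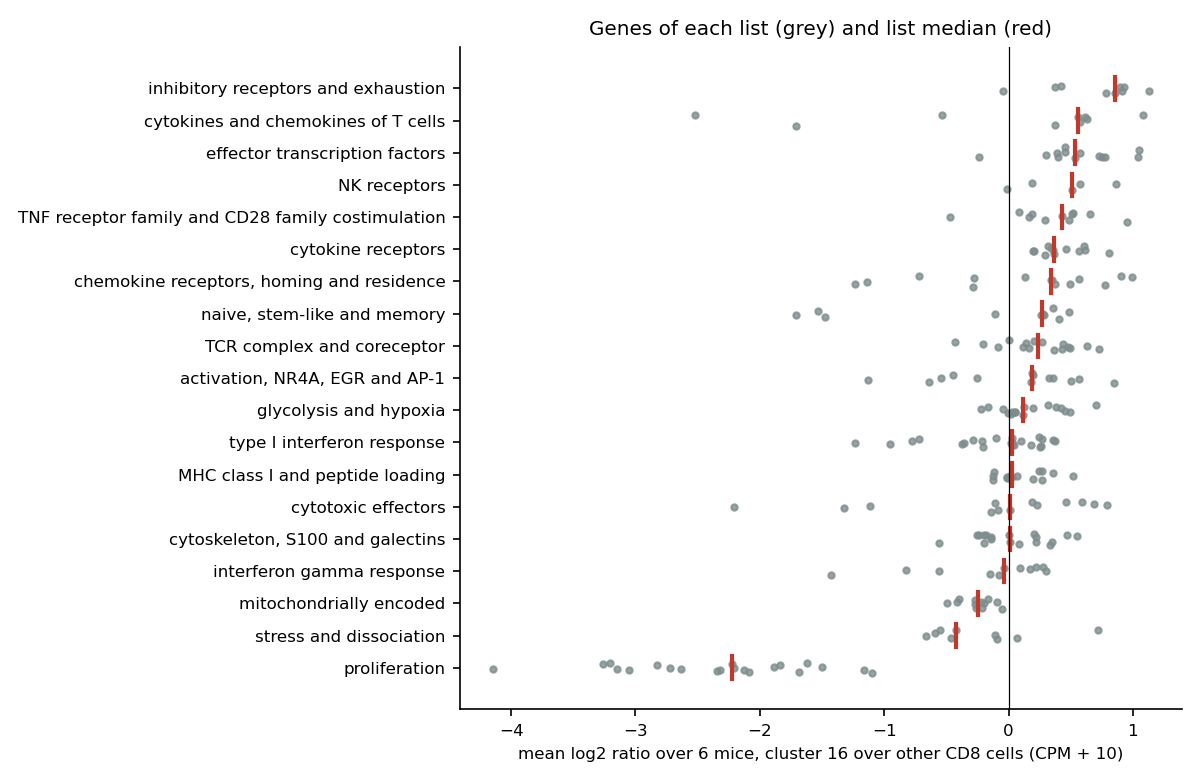
Mean log2 ratio over 6 mice of cluster 16 over the other CD8 cells (CPM + 10, horizontal axis) for every measured gene (grey) of the 19 gene lists (rows), with each list's median in red. The proliferation list lies furthest to the left at -2.23 and the inhibitory receptor list furthest to the right at 0.86.

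The share of CD8 cells that fell in cluster 16 did not differ detectably between treatments. It was 36.6, 34.3 and 34.9% in GA-aFuc replicates 1 to 3, 39.5, 39.4 and 23.5% for GITR/Syn GA-aFuc, 27.6, 32.1 and 31.3% for N297A, and 28.6, 30.5 and 29.6% for Untreated mice. The means were 35.2 ± 1.19% (SD, n = 3), 34.1 ± 9.19%, 30.4 ± 2.41% and 29.6 ± 0.92%. The 3 GA-aFuc mice lay above all 6 N297A and Untreated mice, and GITR/Syn GA-aFuc replicate 3 was the lowest of the 12. An exact two-sided permutation of treatments within libraries (32400 arrangements) gave p = 0.467, and 0.933 after adjustment over both denominators. That 1 mouse decided the call: without GITR/Syn GA-aFuc replicate 3 the exact p was 0.00111, while leaving out any other mouse gave 0.460 to 0.635. It has 68 CD8 cells, of which 16 were in cluster 16. Against all annotated cells the share ran from 0.831 to 4.63%, with an exact permutation p of 0.988. Library 1 enters through its annotation alone, in which 34 barcodes occur in both libraries.

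**Figure D3:**
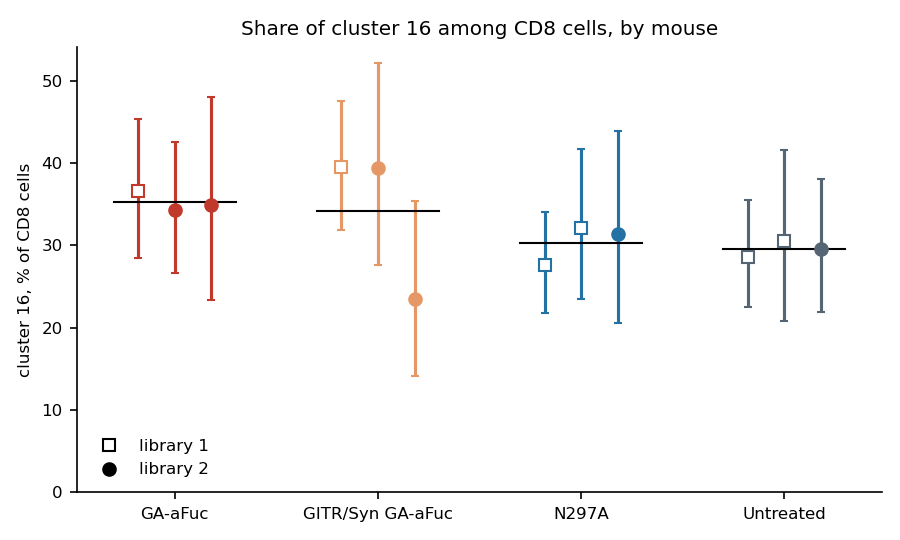
Share of cluster 16 among CD8 cells in percent for each of the 12 mice, by treatment, with exact 95% binomial intervals (bars, counting error only) and treatment means (black lines); open squares are library 1 and filled circles library 2. Mice given GA-aFuc lie at 34.3 to 36.6% and Untreated mice at 28.6 to 30.5%, and 1 GITR/Syn GA-aFuc mouse lies at 23.5%.

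Few genes passed a test of treatment within cluster 16, by edgeR's quasi-likelihood test on summed counts with Benjamini-Hochberg adjustment. GA-aFuc against Untreated called 1 of 5075 genes (0.0197%), GA-aFuc against N297A 4 (0.0788%), N297A against Untreated 3 (0.0591%), GITR/Syn GA-aFuc against GA-aFuc 2 (0.0394%) and GITR/Syn GA-aFuc against Untreated 0 (0.0%, with 210 genes at an unadjusted p under 0.05 and 1 call by DESeq2). N297A and Untreated are 1 mouse each and are assumed to vary like the other treatments, and these comparisons share mice.

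Most UMIs of the cytokine genes called for N297A came from 1 cell. Ccl4, an inflammatory chemokine, was at 790 and 628 CPM in GA-aFuc replicates 2 and 3, 1102 and 417 CPM in GITR/Syn GA-aFuc replicates 2 and 3, 4116 CPM in N297A replicate 3 and 611 CPM in Untreated replicate 3. Its log2 fold change in N297A over Untreated was 2.72 ± 0.40 (SE, edgeR adjusted p = 0.0103). Of the 590 Ccl4 UMIs in the N297A mouse 510 (86.4%) were in 1 of its 21 cells. The same cell held 150 of 174 Ifng UMIs (86.2%) and 159 of 176 Ccl3 UMIs (90.3%). That cell had 6787 UMIs, the median of its mouse, and 2264 genes, against a median of 2506. Without it Ccl4 was at 586 CPM, Ifng, the gene of interferon-γ, at 176 CPM and Ccl3, a chemokine relative of Ccl4, at 124 CPM, all within the range of the other mice without their own top cells. When the cell with most UMIs of each gene was left out in every mouse, chosen after the data were seen, N297A against Untreated called 0 of 4037 genes (172 at an unadjusted p under 0.05). The log2 fold changes became 0.43 for Ccl4, 0.30 for Ifng and -0.38 for Ccl3. The calls of Ccl3, Ccl4 and Ifng in GA-aFuc against N297A (-2.90, -2.52 and -1.96) were lost in the same way, at -0.04, -0.19 and 0.19, while 6 genes passed, with Gzmf, Gzmb and Ifitm1 higher and Tox, Ifi203 and Gm26740 lower in GA-aFuc. DESeq2 called none of the 3 genes in N297A against Untreated.

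The remaining call against N297A, Gm26740, an annotated gene model, was at 29.0 and 18.6 CPM in GA-aFuc replicates 2 and 3, 70.2 and 39.7 CPM for GITR/Syn GA-aFuc, 216 CPM for N297A and 31.6 CPM for Untreated. It rested on 4 to 31 UMIs a mouse. Its log2 fold change in GA-aFuc was -3.08 ± 0.50 (edgeR adjusted p = 0.00985), and -3.48 without the top cells (edgeR adjusted p = 0.0363). Equal numbers of cells per mouse ended the call (edgeR adjusted p = 0.360), as did DESeq2 (adjusted p = 0.9998) and leaving out cells with macrophage UMIs (0.995), while the log2 fold change stayed between -3.48 and -2.75 in all 15 alternatives.

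Ccl5, a chemokine of cytotoxic cells, was spread over more cells. It was at 1901 and 2060 CPM in GA-aFuc replicates 2 and 3, 3393 and 4899 CPM in GITR/Syn GA-aFuc replicates 2 and 3, 2170 CPM in N297A and 1573 CPM in Untreated. Both GITR/Syn GA-aFuc mice lay above the other 4. The gene was picked by its test, and the share of all genes with this order was not counted. The log2 fold change was 1.08 ± 0.19 over GA-aFuc (edgeR adjusted p = 0.0371) and 1.40 ± 0.24 over Untreated (edgeR adjusted p = 0.0513). No cell held more than 32.5% of a mouse's Ccl5 UMIs, and without the top cells the values were 1.06 and 1.34 (edgeR adjusted p = 0.0150 and 0.0359). The call over GA-aFuc was lost without GITR/Syn GA-aFuc replicate 3 (0.74, edgeR adjusted p = 0.248) and without GA-aFuc replicate 2 (1.02, edgeR adjusted p = 0.160). In the other CD8 cells the order was not the same: Ccl5 was at 1528 and 957 CPM in the GITR/Syn GA-aFuc mice and 1918 and 1467 CPM in the GA-aFuc mice. The Ccl3 call over GA-aFuc (1.72, edgeR adjusted p = 0.0371) rested in GITR/Syn GA-aFuc replicate 3 on 1 cell with 61 of 67 UMIs, and was lost without the top cells (1.001, edgeR adjusted p = 0.9995). Gzma, a granzyme, had a log2 fold change of 6.04 over Untreated (edgeR adjusted p = 0.0513), but 107 of its 109 UMIs in GITR/Syn GA-aFuc replicate 3 were in 1 cell.

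Trbc2, a constant segment of the T cell receptor β chain, was lower in GA-aFuc than in Untreated cells. It was at 961 and 856 CPM in GA-aFuc replicates 2 and 3, 1334 and 1488 CPM for GITR/Syn GA-aFuc, 1319 CPM for N297A and 2299 CPM for Untreated. The log2 fold change was -1.35 ± 0.21 (edgeR adjusted p = 0.0250, DESeq2 adjusted p = 0.0344). No cell held more than 13.8% of its UMIs. Equal numbers of cells per mouse (edgeR adjusted p = 0.284), the stricter filter (0.129) and leaving out GA-aFuc replicate 3 (0.0972) ended the call, as did leaving out cells with macrophage UMIs (0.9998), while the log2 fold change stayed between -1.46 and -1.28 in all 15 alternatives. Each αβ T cell uses Trbc1 or Trbc2, which are near-identical copies, so the split of reads between them is uncertain. Trbc2 made up 54.6 and 43.2% of the UMIs of both copies in GA-aFuc replicates 2 and 3, 79.6 and 50% with GITR/Syn GA-aFuc, 57.4% with N297A and 86.2% in the Untreated mouse. In the other CD8 cells of the same mice it made up 57.5, 47.9, 66.8, 57.0, 50.2 and 72.7%, again highest in the Untreated mouse. A Trbv segment, the variable part of that chain, had a UMI in 48 of 174 cells, and in the Untreated mouse 7 of the 15 such cells showed Trbv16.

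**Figure D4:**
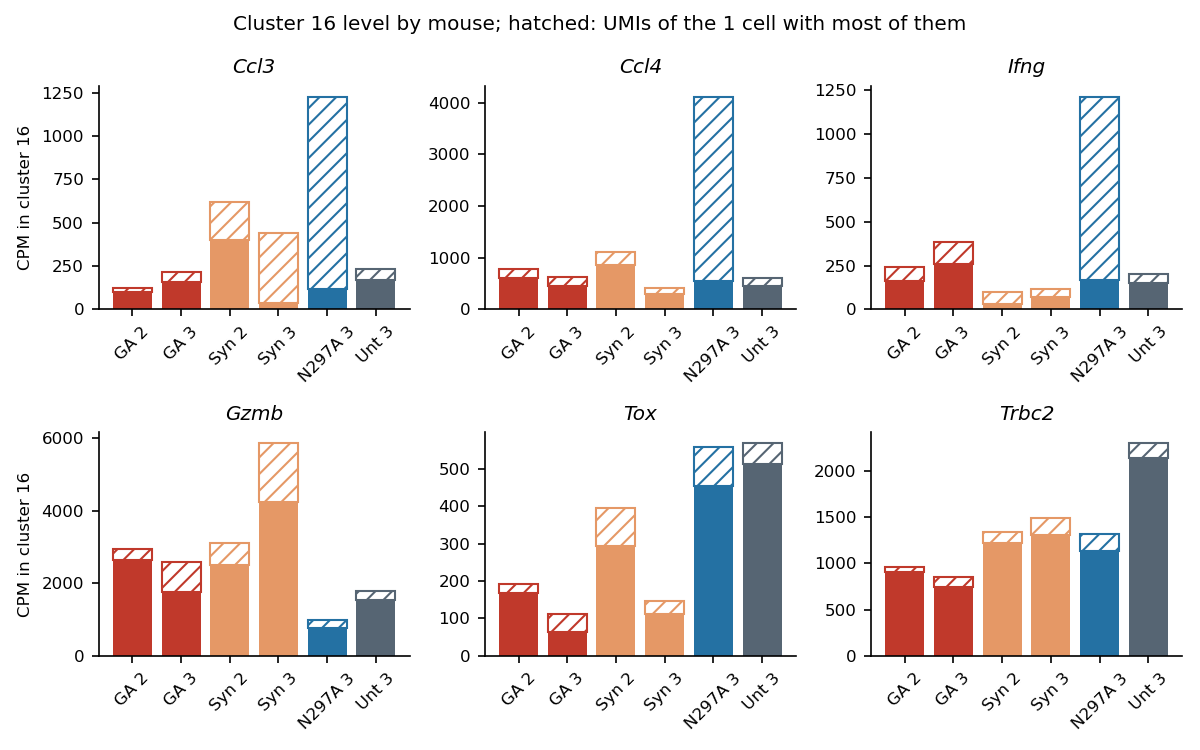
Level of 6 genes in cluster 16 cells of each library 2 mouse (CPM, linear axis from 0), with the UMIs of the 1 cell that held most of them hatched; GA is GA-aFuc, Syn is GITR/Syn GA-aFuc, Unt is Untreated, and the number is the replicate. The N297A bars of Ccl3, Ccl4 and Ifng are 90.3, 86.4 and 86.2% hatched, while in Gzmb, Tox and Trbc2 at most 41.7% of a bar is hatched.

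The 4 mice given an Fc-enhanced antibody (GA-aFuc and GITR/Syn GA-aFuc) were also set against the N297A and Untreated mice. edgeR called 0 of 4276 genes (0.0%), with 251 at an unadjusted p under 0.05 and 0 calls by DESeq2. The values with the smallest p are given as not passing. Gzmb, the main granzyme of effector CD8 cells, was at 2947, 2572, 3121 and 5858 CPM in the 4 Fc-enhanced mice and 991 and 1774 CPM in the N297A and Untreated mice. The groups did not overlap, but the gene was picked for its small p, and the share of all genes without overlap was not counted. The log2 fold change was 1.37 ± 0.28 (edgeR adjusted p = 0.420). In the other CD8 cells Gzmb was at 3448, 2241, 2745 and 2613 CPM against 1180 and 1693 CPM, again without overlap. The log2 fold change there was 0.95 (edgeR adjusted p = 0.0639), so the direction was shared by the other CD8 cells. Gzma did not pass here (2.93, edgeR adjusted p = 0.555) but passed in the other CD8 cells (1.38, edgeR adjusted p = 0.0332). Tox was at 193, 112, 395 and 145 CPM against 558 and 568 CPM, a log2 fold change of -1.40 ± 0.32 (edgeR adjusted p = 0.463). Its value in the other CD8 cells was -0.95 (edgeR adjusted p = 0.919). Without GITR/Syn GA-aFuc replicate 2 both genes passed (edgeR adjusted p = 0.00389 for Gzmb and 0.000106 for Tox). Il10ra, a subunit of the interleukin-10 receptor, had a log2 fold change of -1.11 (edgeR adjusted p = 0.463). Lyz2, a myeloid gene, was at 2.49 (edgeR adjusted p = 0.420), and its part in the CD8 cells or in myeloid RNA was not tested.

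No interferon gene passed this test, and most had values below 0. Of 23 tested members of the type I interferon list 20 had a fold change below 0, with a median of -0.65 against 0.01 for all genes, 0 passed and 14 had an unadjusted p under 0.05. Their summed level in cluster 16 was 4526, 3725, 4248 and 4264 CPM in the 4 Fc-enhanced mice and 5972 and 5223 CPM in the N297A and Untreated mice. In the other CD8 cells the sums were 4883, 4897, 5069 and 4833 CPM against 4702 and 4133 CPM, with the order of the sums turned round. Abundant genes weigh most in a sum. The list member Ifitm1 alone ran from 223 to 1247 CPM over the mice in the other CD8 cells. The order without Ifitm1 was not tested. Ifi203, an interferon-induced nuclear protein, was at 256, 154, 233 and 185 CPM against 530 and 350 CPM, a log2 fold change of -1.03 ± 0.24 (edgeR adjusted p = 0.490). Ifit3, an antiviral effector, was at -1.68 ± 0.44 (edgeR adjusted p = 0.555) and Rsad2, the gene of viperin, at -1.49 ± 0.61 (edgeR adjusted p = 0.780). In the other CD8 cells the log2 fold changes of Ifi203, Ifit3 and Rsad2 were -0.57, -0.62 and -0.10, below 0 as in cluster 16. All 15 tested genes of MHC class I and peptide loading were below 0, with a median of -0.13 and 0 passing. Without GA-aFuc replicate 3 the median was -0.07 with 12 of 15 below 0, without GITR/Syn GA-aFuc replicate 3 it was -0.20 with 15 of 15, and 13 and 12 of 15 were below 0 without N297A replicate 3 and Untreated replicate 3.

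**Figure D5:**
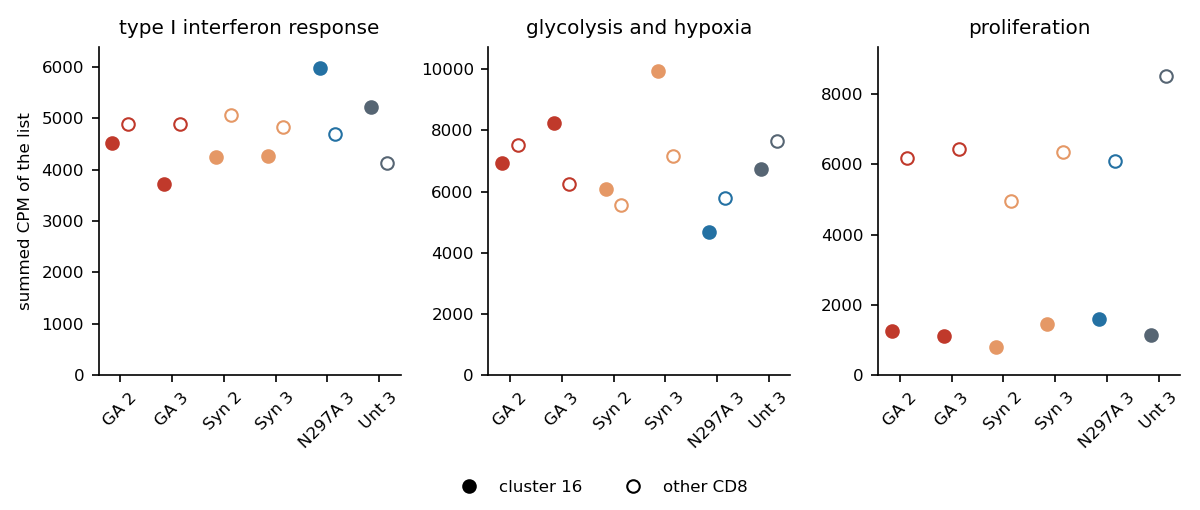
Summed CPM of 3 gene lists in cluster 16 (filled) and in the other CD8 cells (open) of each library 2 mouse, on linear axes from 0, with GA for GA-aFuc, Syn for GITR/Syn GA-aFuc and Unt for Untreated. Filled points of the type I interferon list are higher in N297A (5972) and Untreated (5223) than in the 4 other mice (3725 to 4526). Open points are not, though abundant genes such as Ifitm1 weigh most in a sum. Proliferation is lower in cluster 16 in all 6 mice.

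In the glycolysis and hypoxia list, 16 of 18 tested were above 0, with a median of 0.42 and 0 passing. Without N297A replicate 3 the median was 0.20 with 6 of 20 below 0, without GITR/Syn GA-aFuc replicate 3 it was 0.28, and without Untreated replicate 3 it was 0.69. Their sums were 6936, 8237, 6079 and 9956 CPM against 4681 and 6750 CPM, and the groups overlapped. Cytotoxic effectors had a median of 0.33 with 10 of 14 above 0, which moved to 0.14 without GITR/Syn GA-aFuc replicate 3 and to 1.07 without Untreated replicate 3. Inhibitory receptors had a median of -0.45 with 7 of 10 below 0. It moved to -0.20 with equal cells per mouse, with 5 of 8 below 0. Without cells with macrophage UMIs it was -0.19 with 7 of 8 below 0, on 4 to 17 cluster 16 cells a mouse.

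Whether cluster 16 differed in this response from the pooled other CD8 cells was tested with the mouse as a block. The interaction called 0 of 6786 genes (0.0%), with 286 at an unadjusted p under 0.05 and 0 by DESeq2. All 26 tested type I interferon genes lay below 0, with a median of -0.57 against 0.02 for all genes, and 0 passed. The pooled clusters differ in interferon genes. Ifit3 averaged 374 CPM in cluster 23, 36.6 in cluster 33, 66.1 in cluster 38 and 364 in cluster 44. The part of the mix of these clusters in each mouse was not tested. Without cells with macrophage UMIs the median was -0.30 with 16 of 22 below 0, and with equal cells per mouse 22 of 26 were below 0. Xcl1, a chemokine that attracts cross-presenting dendritic cells, was at 48.3, 60.5, 43.9 and 59.5 CPM in cluster 16 of the Fc-enhanced mice and 195 and 77.5 CPM in the N297A and Untreated mice. In the other CD8 cells it was at 127, 152, 423 and 1113 CPM against 258 and 108 CPM. Its interaction was -2.18 ± 0.49 (edgeR adjusted p = 0.392), and -3.29 without the top cells (edgeR adjusted p = 0.0341). Klra7 had the smallest p (-7.37, edgeR adjusted p = 0.141), with 18 UMIs in 1 N297A cell.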

How the data were processed

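Single-cell RNA libraries were prepared with a 3′ droplet assay from hashed mice, per the labels' protocols. The authors deposited unfiltered raw UMI counts (each barcode by feature), made by Cell Ranger 9.0.0 per the file headers, with GRCh38 and GRCm39, per the submitters' processing notes. Treatment, cell type and cluster come from the authors' deposited annotation. Its making and any removal of doublets are not given in the sources used here. Doublets were not called again. Sorted barcode runs in that table were taken as mice, and replicates are numbered in the order of these runs. In library 2 the top hashtag matched the run in 10476 of 10476 cells. In library 1 the mice rest on the runs alone.

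Counts were summed per mouse and tested with edgeR 4.0.16 (filterByExpr, TMM, glmQLFit, glmQLFTest) in 1 fit of 6 mice with 2 residual degrees of freedom for the 4 treatments, Benjamini-Hochberg adjusted at 0.05. Fold changes are log2, and SE is the size of the fold change over the square root of F. CPM count all gene UMIs of the summed cells. DESeq2 1.42.0, other size factors, filters, cell sets and leaving out each mouse were alternatives, and the top-cell and cluster 38 alternatives were chosen after seeing the data. On simulated counts for GA-aFuc against Untreated (5075 genes simulated, 4674 tested), the test recovered 13 of 100 genes with a 2-fold change and 82 of 100 with an 8-fold change, and made 3 false calls. Counts were simulated per mouse and not per cell, so the false calls do not cover genes held mostly by 1 cell.

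Members, lists and tests were chosen with earlier results of these data known. Named genes are the 15 highest and 10 lowest ratios with one direction in every mouse, up to 4 per list, and up to 5 each way per contrast that passed, or the 5 smallest p; the always-named genes are Cd8a, Cd8b1, Cd3e, Cxcr6, Pdcd1, Tnfrsf18 and Foxp3, and not every selected gene is printed. Mki67, Entpd1, Tcf7, Bcl2, Serpinb9, Nkg7, Fasl, Srgn, Nr4a1, Klra1, Klra7 between CD8 cells, Isg15, Trdc, Cd4, Trbv16, Xist and, between clusters, Tox were chosen after their values were seen.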

Additional observations from a re-analysis of the deposited data

Results flagged for a closer look

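In 24 groups of the 4 Fc-enhanced mice (5 genes and 19 list sums), 2 had a mouse whose gap to the others passed Dixon's 95% value, where chance gives about 1 in 20. Both were GITR/Syn GA-aFuc replicate 3, the mouse with the fewest cluster 16 cells (16). Its Gzmb level was 5858 CPM against 2572 to 3121 CPM in the other 3 mice, with 27.7% of its Gzmb UMIs in 1 cell. Its sum over the activation, NR4A, EGR and AP-1 list was 2195 CPM against 3495 to 3702 CPM.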

How the results depend on the processing

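No paired analysis was possible because the mice compared share no pairing in the labels; the interaction already has the mouse as a block. Genes passing were, for GA-aFuc against N297A, 4 as reported, 1 with DESeq2, 20 with no filter, 45 with only these treatments and 0 without cells with macrophage UMIs. For GA-aFuc against Untreated they were 1 as reported, 0 with equal cells, 16 with no filter, 3 with only these treatments, 2 without top cells, 0 with the stricter filter and 0 without cells with macrophage UMIs. For GITR/Syn GA-aFuc against GA-aFuc they were 2 as reported, 1 with DESeq2, 5 with equal cells, 24 with no filter, 0 with only these treatments, 0 with the stricter filter and 1 without cells with macrophage UMIs. For GITR/Syn GA-aFuc against Untreated they were 0 as reported, 1 with DESeq2, 2 with RLE size factors, 1 with equal cells, 2 with mouse features only, 11 with no filter, 1 with only these treatments, 1 without top cells and 2 without the highest 5% of UMIs. For N297A against Untreated they were 3 as reported, 0 with DESeq2, 8 with no filter, 0 without top cells, 0 with the stricter filter and 0 without cells with macrophage UMIs. The Fc-enhanced comparison gave 0 as reported and 41 with no filter, and the interaction 0 as reported, 4 with equal cells, 13 with no filter and 1 without top cells. Leaving out each mouse gave 4 to 40, 1 to 22, 2 to 24, 2 to 22, 3 to 19, 0 to 6 and 0 to 4 genes in the same order; every one of the 5 treatment maxima came without GITR/Syn GA-aFuc replicate 2, and the cause was not tested. N297A replicate 3 and Untreated replicate 3 cannot be left out of their own contrasts.

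The p of the CD8 share ran from 0.00111 to 0.635 over mice left out, and that of the share of annotated cells from 0.4996 to 0.9991. Without top cells Ifng reversed to 0.19 in GA-aFuc against N297A and Ccl3 to -0.38 in N297A against Untreated; without cells with macrophage UMIs Ccl3 reversed to -0.44 in GITR/Syn GA-aFuc against GA-aFuc. Genes at least 2-fold lower in cluster 16 in every mouse were 61 as reported, 20 at a pseudocount of 50 CPM, 96 with no minimum, 32 at 100 CPM, 23 thinned, 17 without cells with macrophage UMIs, 30 against cluster 23, 1 without cluster 38, and 59 to 72 with a mouse left out. Genes at least 2-fold higher were 1 as reported, 0 at a pseudocount of 50 CPM, 0 at 100 CPM, 2 thinned, 2 without cells with macrophage UMIs, 49 against cluster 23, and 1 to 4 with a mouse left out. The type I interferon median kept its sign in 15 of 15 alternatives, from -0.87 to -0.49 for the Fc-enhanced comparison and from -0.81 (without GA-aFuc replicate 2) to -0.30 (without cells with macrophage UMIs) for the interaction. With 16 to 50 cells a mouse, a single cell can decide a gene, and 2-fold changes were mostly missed in the simulated data.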

Other observations

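Cluster 23 differed from cluster 16 in interferon genes as well as in stem-like ones: Ifit3 averaged 374 CPM in cluster 23, 364 CPM in cluster 44 and 61.6 CPM in cluster 16, and Isg15, a ubiquitin-like interferon product, 476, 555 and 229 CPM. Bcl2, a survival gene, averaged 1060 CPM in cluster 23 and 459 CPM in cluster 16.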
